A study of Mus musculus with 28 samples.

Results

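The binding of Ctcf in wild-type neural stem cells was compared between cells that had not been transduced and cells that carried a non-silencing short hairpin RNA (shRNA). The 4 libraries, 2 of each kind, were chosen by their titles and are 4 of the 28 of the series, which maps Ctcf, the chromatin protein Smchd1, histone marks and DNA methylation by sequencing. All 4 came from male E14.5 mouse brain of the mixed strain C57BL/6 x FVB/N, grown as neural stem cells with EGF and bFGF, and all were wild type for Smchd1. The untransduced group received no shRNA. The non-silencing group was transduced with a hairpin labelled Non-silencing, and its vector and promoter are not stated in the sources used here. The labels do not say whether the 2 libraries of a group came from separate embryos or cultures.

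Each group is represented by 1 list of peak summits that the authors called on its 2 libraries together, so no value here has replicate error and no test between the groups was possible. Both lists have the same control, the Ctcf immunoprecipitation from Smchd1 wild-type cells with the hairpins Ctcf.6 and Ctcf.7, 1 library each and labelled Ctcf null. Those control cells were transduced, as the non-silencing cells were and the untransduced cells were not. The list from Smchd1 null cells (homozygous for the MommeD1 allele), which has the same control, is given beside the pair for comparison. The sample names of the null libraries carry the same abbreviation, Un, as those of the untransduced wild-type libraries, and their titles do not mention transduction. All these immunoprecipitations used 1 lot of Ctcf antibody. On assembled chromosomes the untransduced list held 8292 summits, the non-silencing list 20483, which is 2.47 times as many, and the null list 11920. The files hold no read counts, so the depth of each library is unknown and its part in list length was not tested.

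Ctcf is a DNA-binding protein with a row of zinc fingers that recognises a long, well-conserved motif. It stops cohesin as this ring-shaped complex extrudes chromatin loops, and so marks loop anchors, borders of chromatin domains and insulators such as those of imprinted genes. Many of its sites are bound in most cell types, and a part of them lies at promoters.

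Promoter sequences show what kind of site the lists share and do not share. In 300-base windows that reach from 250 bases before to 50 bases after each RefSeq transcription start (GRCm38.p6, the assembly of mm10), a core of the Ctcf motif was searched on both strands. The core, taken from general knowledge of Ctcf and not from the files, reads CCA, any 2 bases, AG, any 2 bases, GGC. It was present in 2.43% of all 32817 windows and in 1.92% of those with no summit of either list. Of windows with a summit of both lists, 77 of 472 held it (16.3%, exact 95% interval 13.1 to 20.0%). It was found in 8 of 55 windows whose summit was in the untransduced list only (6.50 to 26.7%) and in 96 of 429 whose summit was in the non-silencing list only (22.4%, 18.5 to 26.6%). The core was therefore more frequent than in all windows in each of the 3 sets, and the interval of the small untransduced-only set spans both of the other shares. Promoter windows with a summit were also richer in G and C, with medians of 62.3% in the shared, 64.0% in the untransduced-only and 59.0% in the non-silencing-only set against 52.7% in all, and the part of base composition in these shares was not tested.

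The windows shown here are the coding-gene promoters with the highest scores in each set whose core lies before the start, 2 for each set. Each is written 5′ to 3′ on the strand of the gene, with the core, or its reverse complement, in capitals. Adprhl2 encodes an ADP-ribose hydrolase (chr4:126321724-126321783, minus strand) and Nsfl1c a cofactor of the p97 ATPase (chr2:151494098-151494157, plus strand), and both had a summit in each list. Gm41099 (chr14:19042150-19042209, plus strand) and Abhd14b (chr9:106448561-106448620, plus strand) had one in the untransduced list only. Trex1, a DNA exonuclease gene (chr9:109059789-109059848, minus strand), and Rab32, a small GTPase gene (chr10:10558256-10558315, minus strand), had one in the non-silencing list only.
Adprhl2: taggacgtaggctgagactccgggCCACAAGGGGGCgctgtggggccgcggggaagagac
Nsfl1c: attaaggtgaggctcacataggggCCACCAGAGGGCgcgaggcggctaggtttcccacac
Gm41099: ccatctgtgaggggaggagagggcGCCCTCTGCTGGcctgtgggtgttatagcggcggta
Abhd14b: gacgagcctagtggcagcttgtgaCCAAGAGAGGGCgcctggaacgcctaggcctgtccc
Trex1: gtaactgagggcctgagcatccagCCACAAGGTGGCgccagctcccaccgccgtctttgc
Rab32: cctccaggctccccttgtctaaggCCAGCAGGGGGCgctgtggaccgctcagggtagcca

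Scores are the authors' MACS2 values on a −log10 scale, of a p-value or of a q-value, and were used here only to rank the summits of 1 list. At Adprhl2 the untransduced score was 31.1 and the non-silencing score 53.4, with both summits on the same base, 29 bp from the centre of the core. At Nsfl1c the scores were 28.5 and 36.3, and the summits lay 1 and 17 bp from the core. These 2 shared promoters stood high in both lists. Gm41099 had an untransduced score of 8.69 and Abhd14b one of 8.62, both near the median of that list, with summits 15 and 28 bp from the core. Trex1 had a non-silencing score of 21.1 and Rab32 one of 19.9, with summits 5 and 7 bp from the core. Of these 4 promoters listed once, Gm41099 (4.07) and Trex1 (8.10) also had a summit in the null list. Over all windows with a summit and a core, the median distance between them was 17.0 bp for the untransduced list (88 windows) and 13.5 bp for the non-silencing list (175 windows).

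At full length the untransduced list was largely contained in the non-silencing one. Of its 8292 summits, 7102 had a non-silencing summit within 1 kb (85.6%, exact 95% interval 84.9 to 86.4%), which left 1190 without. In the other direction 7269 of 20483 non-silencing summits had an untransduced one (35.5%, 34.8 to 36.1%), which left 13214. The 2 shares differ because the lists differ in length. Shared summits lay close together: 6464 untransduced summits had a counterpart within 50 bp, the median distance of the 7102 pairs was 18.0 bp, and 127 pairs fell on the same base. The intervals cover counting error only and treat neighbouring summits as independent.

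Whether a summit had a counterpart moved with its own score. In the untransduced list the share fell from 96.0% in the highest-scoring 10% of summits (scores of 14.9 to 191) to 70.4% in the lowest 10% (3.31 to 5.48). In the non-silencing list it fell from 73.0% in the highest 10% (18.0 to 75.6) to 16.7% in the lowest 10% (3.35 to 6.12). Sites listed once thus had lower median scores in their own list than shared sites, though unshared summits occurred in every part of both rankings. Shared untransduced summits had a median score of 9.21 (quartiles 7.11 and 12.1) and untransduced-only ones 7.27 (5.61 and 9.19). Shared non-silencing summits had a median of 12.4 (9.39 and 16.9) and non-silencing-only ones 9.23 (7.23 and 12.1).

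**Figure D1:**
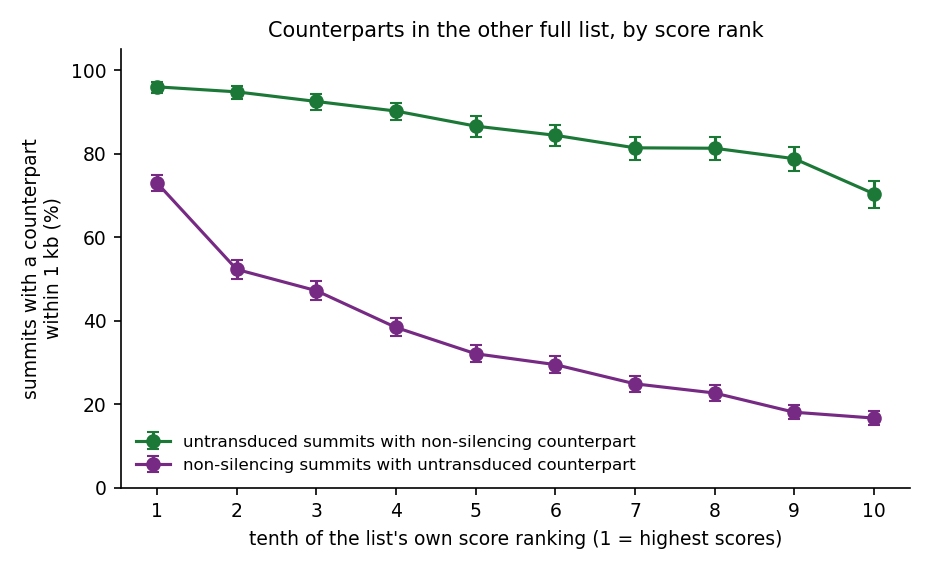
Share of summits with a counterpart within 1 kb in the other full list (y axis, percent, with exact 95% binomial bars for counting error) in each of 10 equal parts of a list's own score ranking (x axis, 1 is the highest). Untransduced summits fall from 96.0% to 70.4% and non-silencing summits from 73.0% to 16.7%.

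With equal numbers of the highest scores, about as many sites were shared as not. Of the 8292 untransduced summits, 4373 had a counterpart among the 8292 highest non-silencing summits, whose lowest score was 11.2 (52.7%, exact 95% interval 51.7 to 53.8%). Among the 1000 highest of each list 403 were shared (40.3%, 37.2 to 43.4%), and among the 100 highest 45 (45.0%, 35 to 55.3%). Most of the unshared sites of these short lists were present lower down in the other list: of the 1000 highest untransduced summits 958 (95.8%) had a counterpart somewhere in the full non-silencing list, and of the 1000 highest non-silencing summits 838 (83.8%) had one in the untransduced list. The lists thus held many of the same sites in different order.

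The null list gave similar shares at equal numbers. With 8292 summits each, 51.5% of untransduced summits (4269, interval 50.4 to 52.6%) and 51.7% of non-silencing summits (4291, 50.7 to 52.8%) had a null counterpart, beside the 52.7% between the wild-type lists. At 1000 summits each, the values were 38.5% and 39.6% beside 40.3%. The pair of one genotype therefore had the largest of the 3 shares at both sizes, and the intervals of the 3 shares meet. The 3 comparisons share their control and each list enters 2 of them, so their likeness was not tested. In each list of 8292, 30.5% to 31.6% of summits had no counterpart in either of the other lists, 2546 in the untransduced and 2525 in the non-silencing list.

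**Figure D2:**
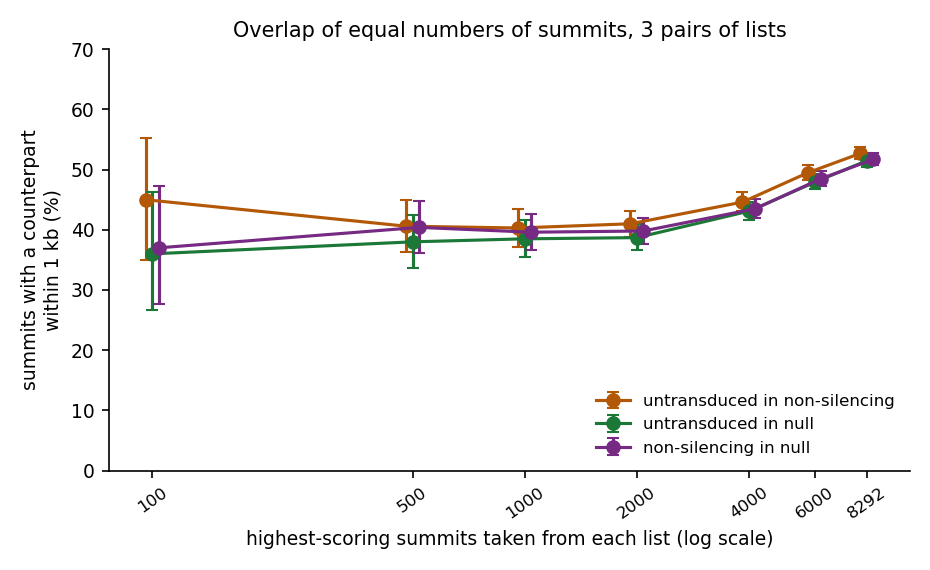
Share of summits with a counterpart within 1 kb (y axis, percent, exact 95% binomial bars) when the same number of highest-scoring summits is taken from each list (x axis, log scale, 100 to 8292). The 3 pairs of lists run together, from 36.0 to 45.0% at 100 summits to 51.5 to 52.7% at 8292.

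The tall untransduced summits without a counterpart lay in a few genes. Mlkl encodes the pseudokinase that opens the plasma membrane in necroptosis, Ripk1 a kinase that acts upstream of it, and Ube2m an enzyme that attaches the ubiquitin-like protein Nedd8. These genes held 7, 9 and 4 untransduced summits in a row with no non-silencing summit within 1 kb. Of the 100 highest untransduced summits 14 lacked a non-silencing counterpart, and all 14 lay in these 3 genes. Once these 14 and a summit at Pgk1 were left out, the other 85 all had one, which follows from leaving out the 14.

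In Mlkl (chromosome 8, 111311255 to 111338479) the 7 summits ran from 8:111315049 to 8:111333687 with scores from 13.4 to 117, and the highest was the second of the whole list. In Ripk1 (chromosome 13, 34002225 to 34035170) the 9 summits ran from 13:34009756 to 13:34032606 with scores from 9.85 to 46.8. In Ube2m (chromosome 7, 13035120 to 13038275) the 4 summits covered 2000 bp with scores of 84.1, 25.8, 31.8 and 51.4. Neither the non-silencing nor the null list had a summit inside any of these 3 genes. Just beyond Mlkl all 3 lists shared a site, with scores of 12.5 untransduced, 25.3 non-silencing and 11.8 null, the untransduced summit lying 32177 bp from the lower gene end. Beyond Ripk1 they shared another, 44341 bp from its lower end in the untransduced list, with scores of 6.08, 23.2 and 12 in the same order. Another run of 4 untransduced-only summits, with scores from 5.64 to 16.8, lay in Mrpl44, a mitochondrial ribosomal protein gene (chromosome 1, 79776018 to 79781445). The non-silencing list had 87 runs of 4 or more summits with gaps of at most 20 kb, the highest score in any of them being 22.8, and the untransduced list had these 4. These runs were looked for after the values had been seen. Neither reads nor exon positions were looked at for these runs or for the Pgk1 summit. Whether they mark Ctcf binding was therefore not tested.

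The highest untransduced summit of all, with a score of 191, lay at X:106186964, 136 bp before the start of Pgk1, which encodes the glycolytic enzyme phosphoglycerate kinase. The non-silencing list had a summit 98 bp away with a score of 8.82, which ranked 12953 of 20483, and the nearest null summit was 1065502 bp away. The site is therefore first in one list and in the lower part of the other. The promoter window of Pgk1 held no match to the searched core. Its sequence around the untransduced summit (chrX:106186934-106186994, plus strand, GRCm38.p6) is shown because it is the tallest site, with the summit base in capitals.
Pgk1: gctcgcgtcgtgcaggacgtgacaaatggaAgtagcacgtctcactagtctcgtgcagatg

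**Figure D3:**
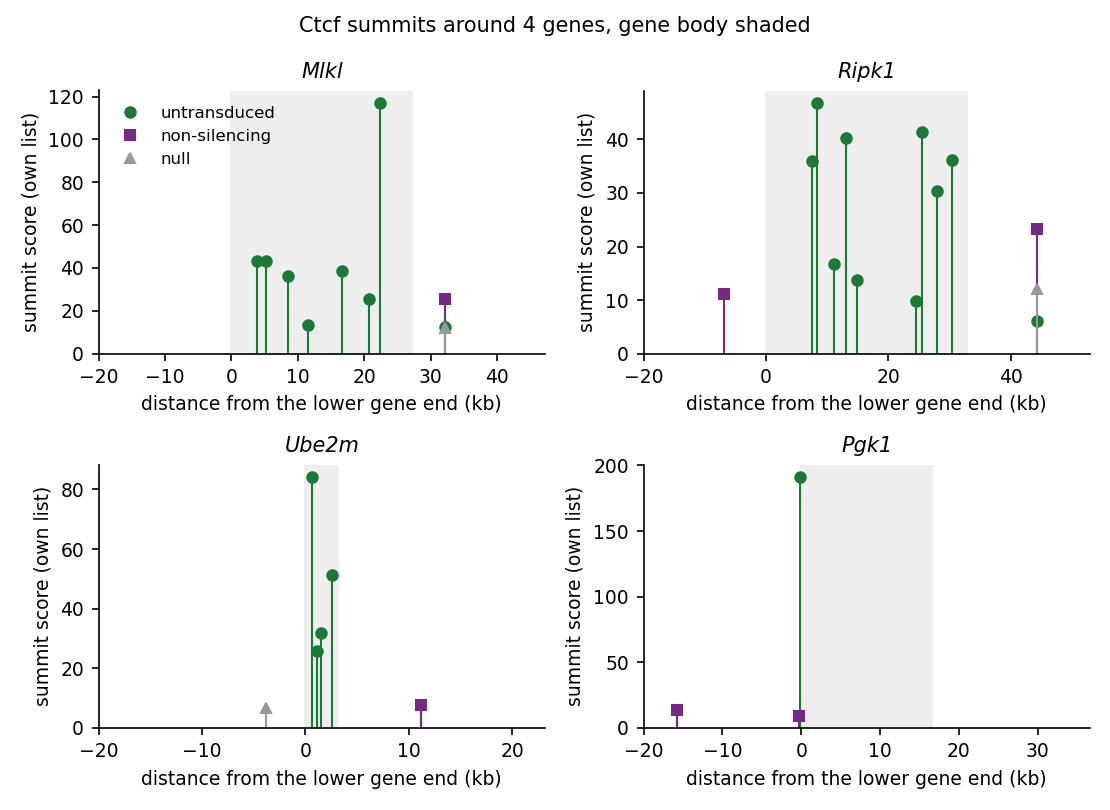
Ctcf summits of the untransduced (circles), non-silencing (squares) and null (triangles) lists from 20 kb below to 20 kb above 4 genes, by distance from the lower gene end (x axis, kb) and score in their own list (y axis), with the gene body shaded. Inside Mlkl, Ripk1 and Ube2m only untransduced summits are seen, up to scores of 117, 46.8 and 84.1, and the Pgk1 panel shows the untransduced score of 191 beside a non-silencing one of 8.82.

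By the rule for naming sites, the 15 highest untransduced summits that lay within 10 kb of a coding gene end and over 5 kb from any non-silencing summit comprised 14 in Mlkl, Ripk1 and Ube2m, 2 of them nearest to the end of Serpinb6a beside Ripk1. The last was 10 bp inside an end of Oxct1, which encodes an enzyme of ketone body use (15:4026438, score 17.5), 12 bp from a null summit of 8.38. It was the single one of the 15 with a null summit within 1 kb. Among sites found in both the untransduced and null lists but not within 5 kb in the non-silencing list, chosen after their values were seen, were those at Cracdl (15.7 untransduced, 15.9 null), Thap12 (14.2 and 21.8) and the aldehyde dehydrogenase gene Aldh2 (13.9 and 8.32). In all, 361 of the 1190 untransduced-only summits lay within 1 kb of a null summit (30.3%, interval 27.7 to 33.0%), against 67.0% of the shared ones.

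In the other direction, the 15 highest non-silencing summits with no untransduced summit within 5 kb were spread over 15 genes, with scores from 25.6 to 39.1, and 13 of them had a null summit within 1 kb. Tanc2, which encodes a scaffold of the postsynaptic density, had the highest (11:105592136, non-silencing score 39.1, null score 13.6). It was followed by Eno1, a gene of the glycolytic enzyme enolase (4:150240313, 32.8 and null 10.4), and Msra, of a methionine sulfoxide reductase (14:64126017, 31.6 and null 6.31). None of these 3 sites had an untransduced summit nearer than 7896 bp. Wnt7b, a Wnt ligand gene, had a non-silencing score of 30.8 (15:85583264, null 13.3), and Tcf7l1, a transcription factor gene of the Wnt pathway, one of 28.5 (6:72789637, null 10.3). Apba2, Xrcc6 (a DNA repair gene), Muc3, Thada, Usp50, Fam220a, Rps14 and 2300002M23Rik were the others with a null summit. 1700012B09Rik (29.4) and Igfbp2, an insulin-like growth factor binding protein gene (25.6), had none within 1 kb. The 15 highest do not stand for the rest. Of all 13214 non-silencing-only summits, 4278 lay within 1 kb of a null summit (32.4%, interval 31.6 to 33.2%). This is close to the 30.3% of the untransduced-only summits.

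With no limit on the distance to a gene, 7 summits that were among the 100 highest of the null list and also present in the non-silencing list had no untransduced summit within 5 kb. They lay at 2:98662732, 2:98665148 and 2:98666805, 14:19415901 and 14:19417849, 9:35305343 and 6:103649218. Their non-silencing scores ran from 29.7 to 42.6 and their null scores from 37.2 to 52.4. At these places the non-silencing and null lists had tall summits and the untransduced list had none. Those on chromosome 2 lay close together, as did those on chromosome 14, so they are not separate places. The one at 2:98665148 was 1033476 bp from the nearest coding gene end. Repeats were not filtered out here and the sequence at these places was not looked at, so whether they are Ctcf sites was not tested. They were chosen after their values had been seen.

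After Pgk1, the highest untransduced summits with a counterpart, within 10 kb of a coding gene end, were at Myrf, a myelin transcription factor gene (19:10240849, 57.5 untransduced and 45.3 non-silencing), and Gdf15, which encodes a stress-induced cytokine (8:70629924, 53.2 and 54.7). Next came Kdm3b, a histone demethylase gene (18:34776909, 51.7 and 49.9), Tmem54 (51 and 46.9), Cfap45 (46.8 and 42.4), Ptpdc1 (44.8 and 43.2), Atp5g2, of a subunit of ATP synthase (42.1 and 69.5), Coa5 (41.3 and 22.9) and Slc48a1, a heme transporter gene (37.6 and 42.5). Of these 10 summits, 6 had wild-type H3K4me3, a mark of active promoters, within 1 kb, and all but Pgk1 had a null summit within 1 kb.

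Many shared sites ranked differently in each list. Of the 821 shared summits in the highest 10% of the untransduced list, 490 (59.7%) were in the highest 10% of the non-silencing list too and 52 (6.33%) in its lower 50%. For 1502 shared untransduced summits the nearest non-silencing summit was in the highest 10% of its list. The same 490 made up 32.6% of these, and 300 (20.0%) were in the lower 50% of the untransduced list. A non-silencing summit nearest to more than 1 untransduced summit was counted for each. At Gm33099 a non-silencing summit of 32.8 was paired with an untransduced one of 6.02 at 599 bp and one of 34.6 at 10 bp. Before ties, the highest 10% is 829 summits of the untransduced and 2048 of the non-silencing list. The 59.7% and 32.6% therefore differ in part by list length. All summits tied at the cut were counted here. Irf9, which encodes the DNA-binding subunit of the interferon-activated factor ISGF3, was one of those high in untransduced cells, with a score of 19.2 (rank 277) against 7.52 (rank 15389). Enc1, a gene of neural development, had 17.6 (rank 430) against 7.82 (rank 14844). In the other direction Ago1, an Argonaute gene of the small RNA pathway, had a non-silencing score of 28.5 (rank 315) against 6.15 (rank 6755), and Tap2, a peptide transporter gene of antigen presentation, 29.5 (rank 281) against 6.37 (rank 6437). Psmc6, of a proteasome subunit, had 32.3 (rank 201) against 6.73 (rank 6273). Its 2 summits lay 491 bp apart, against a median of 18.0 bp over all pairs, so they may not be 1 site. These genes were chosen by rank after their values had been seen.

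The promoter mark H3K4me3 neighboured shared sites more often than unshared ones at equal numbers, where most unshared untransduced sites are found lower down in the other list. At equal numbers, 21.9% of shared untransduced summits (interval 20.6 to 23.1%) and 16.2% of untransduced-only ones (15.1 to 17.4%) had wild-type H3K4me3 within 1 kb. For the non-silencing list the shares were 21.7% (20.5 to 22.9%) and 13.6% (12.5 to 14.7%). A coding gene end lay within 2 kb of 24.9% and 21.6% of untransduced summits, shared and unshared, and of 24.8% and 16.9% of non-silencing ones. The unshared sites of the non-silencing list thus lay less often at gene ends than those of the untransduced list (15.7 to 18.1% against 20.3 to 22.9% as intervals). Within the highest 20% of non-silencing scores, H3K4me3 neighboured 22.6% of shared and 15.2% of non-silencing-only summits, and within the lowest 20% 15.9% and 9.57%, with lists at full length. This was not computed for the untransduced list. At full length the untransduced shares lay closer together, at 19.5% of shared (18.6 to 20.5%) and 17.1% of untransduced-only summits (15.0 to 19.4%) for H3K4me3 and 23.4% and 22.7% for gene ends. The non-silencing ones were 19.7% and 10.9% for H3K4me3 and 23.4% and 16.0% for gene ends.

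Null Ctcf summits showed the widest gap in percentage points. At equal numbers they lay within 1 kb of 74.9% of shared and 47.0% of unshared untransduced summits, and of 74.8% and 45.1% of non-silencing ones. Shared summits also had higher median scores there, 10.2 against 7.73 in the untransduced and 16.0 against 13.9 in the non-silencing list. The part of score in this gap was not tested. Summits of methylated DNA in either of the lists from capture on a methyl-CpG binding domain (MBD) lay within 1 kb of 18.2% of shared and 16.5% of unshared untransduced summits, and of 18.0% and 16.8% of non-silencing ones. Smchd1 summits were near few sites, at 1.30% of shared (interval 0.989 to 1.69%) and 0.868% of unshared (0.602 to 1.21%) untransduced summits. For the non-silencing list the shares were 1.26% (0.953 to 1.64%) and 0.610% (0.391 to 0.906%). H3K27me3, the Polycomb mark, was near 7 and 8 summits.

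**Figure D4:**
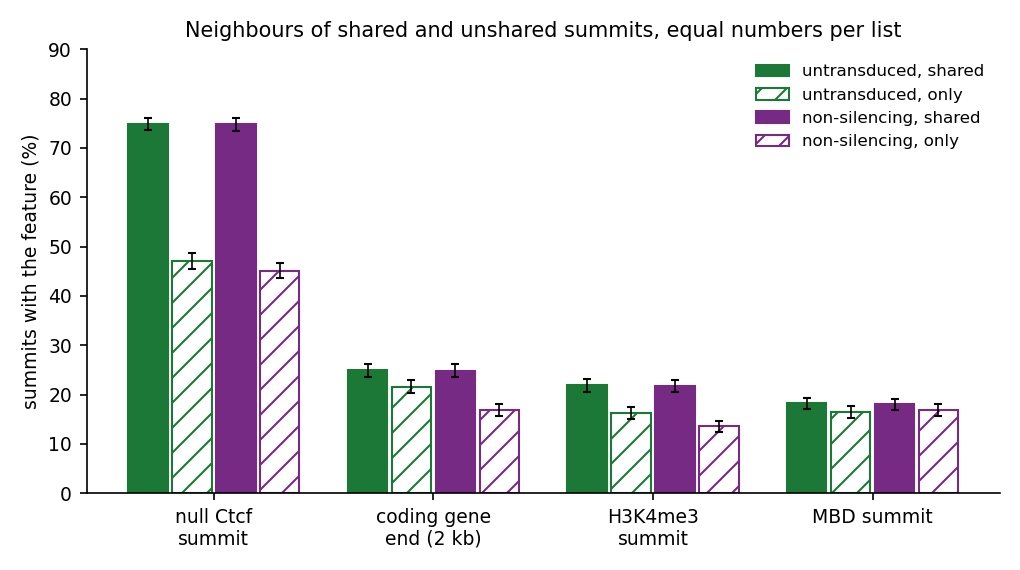
Share of summits with each neighbour (y axis, percent, exact 95% binomial bars) for shared (filled) and unshared (hatched) summits of the untransduced and non-silencing lists with 8292 summits each. Null Ctcf summits neighbour 74.9 and 74.8% of shared and 47.0 and 45.1% of unshared summits, and the bars for MBD lie between 16.5 and 18.2%.

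The X chromosome, of which male cells carry 1 copy, took a small part of both lists. It held 64 untransduced summits (0.772%, interval 0.595 to 0.985%), 280 non-silencing summits (1.37%, 1.21 to 1.54%) and 131 null summits (1.10%, 0.920 to 1.30%). The non-silencing list held 4.38 times as many X summits as the untransduced one, against 2.17 to 2.73 times on the 19 autosomes. Among the 8292 highest non-silencing summits 52 were on X (0.627%, 0.469 to 0.822%), so the larger share came from lower scores. X summits had a median score of 8.62 against 10.2 on autosomes in the non-silencing list, and of 9.21 against 8.68 in the untransduced list.

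Of 21887 protein-coding genes, 2110 (9.64%) had an untransduced summit within 2 kb of an annotated end and 3918 (17.9%) a non-silencing one. Both lists marked 1854 genes, 44.4% of the 4174 marked in either. Only the untransduced list marked 256 genes, which is 6.13% of the 4174 and 1.17% of all coding genes. Only the non-silencing list marked 2064, which is 49.4% and 9.43%. At equal numbers 1238 of 2800 genes were marked in both (44.2%), 872 in the untransduced list only (31.1%) and 690 in the non-silencing list only (24.6%). The excess of genes in the longer list turned round at equal numbers. Of the 256 genes marked in the untransduced list only, 89 (34.8%) also had a null summit, as did 820 of the 2064 (39.7%) of the other list and 1414 of the 1854 marked in both (76.3%).

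The genes below come from 24 lists with 324 annotated entries, of which 45 were marked in the untransduced and 72 in the non-silencing list, 41 in both, 4 in the untransduced and 31 in the non-silencing list only. As for all genes, this turned at equal numbers, where 23 were marked in the untransduced list only and 9 in the non-silencing list only. The lists at full length are meant below unless equal numbers are named. The counts below are to be read beside the shares of all coding genes, 9.64% marked in the untransduced and 17.9% in the non-silencing list. For genes marked in 1 list only these shares are 1.17% and 9.43%, in the same order. At equal numbers, 872 and 690 of the 21887 coding genes were marked in 1 list only, in the same order. No gene list was tested against them.

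In the Hox clusters, which set position along the body axis, 5 of 41 genes were marked in untransduced and 10 in non-silencing cells, and all 5 were among the 10. Hoxa3 (9.54 untransduced, 18.6 non-silencing), Hoxa9 (8.01 and 10.6), Hoxa13 (3.81 and 9.23), Hoxb8 (7.89 and 10.9) and Hoxc10 (8.23 and 7.23) were in both. Hoxa5 and Hoxa6 shared 1 non-silencing summit (8.99), as did Hoxd12 and Hoxd13 (5.43), and Evx2 had one of 12. At equal numbers Evx2 alone was marked in the non-silencing list only, and 4 genes, Hoxa9, Hoxa13, Hoxb8 and Hoxc10, in the untransduced list only.

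Clustered protocadherins give single neurons their surface identity. Pcdhac1 was marked in both lists, with 13 and 28.2. The non-silencing list added Pcdha12 (4.19), 5 of 22 beta genes and 2 of 22 gamma genes, and the untransduced list none. The beta genes were Pcdhb2 and Pcdhb10 (10.9 each), Pcdhb3 (8.39), Pcdhb7 (6.12) and Pcdhb6 (5.92), none of which was left at equal numbers. Pcdhgb8 (12.1) and Pcdhgc3 (12) were left.

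Imprinted genes, several of which are controlled by Ctcf-bound insulators, had 4 untransduced and 7 non-silencing genes of 34. Peg13 (12.3 and 10.9) and Ddc (7.11 and 6.86) were in both. Kcnq1ot1 (8.22) and Ube3a (4.64) were marked in untransduced cells only. H13 (14.3), Peg3 and its neighbour Usp29 (1 shared summit, 9.76), Airn (7.52) and Nnat (5.92) were marked in non-silencing cells only. At equal numbers 4 imprinted genes were marked in the untransduced list only and 1, H13, in the non-silencing list only. H19 and Igf2 had no summit within 2 kb of an end in either list. Summits farther out were not counted, so this does not show whether an insulator of these 2 genes was bound.

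Of 17 genes of Ctcf, cohesin and its loading factors, 5 were marked in both lists, 1 in the non-silencing list only and the others in neither. Ctcf itself, the target of the hairpins in the control cells, had scores of 13.4 untransduced and 9.58 non-silencing. Of cohesin and its regulators, Stag2 (7.72 and 13.4), Pds5a (11.3 and 17.6), Pds5b (10.5 and 12.2) and Esco1 (10.2 and 10.9) were in both, and Smc3 (16.6) was in the non-silencing list only. At equal numbers 2 of the 17 were marked in the untransduced list only and 1 in the non-silencing list only.

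Neural stem cell genes were marked in 4 of 18 cases by both lists: Nes (17.3 and 13.4), Msi1 (12.1 and 16.6), Olig2 (11 and 11.8) and Vim (5.48 and 6.17). The Notch effector gene Hes1 (21.4) and the glutamate transporter gene Slc1a3 (8.15) were marked in non-silencing cells only. The neuron genes Rbfox3 (10.2 and 8.39), Gad1 (3.81 and 6.17) and Neurog2 (6.70 in the untransduced list) were marked in both. Of other cell types, the blood gene Spi1 (15.3 and 40.1), the endothelial gene Cdh5 (12.6 and 14.7) and the mesenchymal gene Col1a1 (11.3 and 19.9) were in both, and S100b (5.78) and Aif1 (6.11) in the non-silencing list only. A Ctcf summit says nothing of expression, so these counts do not show which cells were present.

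Interferon response, p53 and small RNA genes were among the lists because one group carried a hairpin. Of 25 interferon response genes 3 were marked in untransduced and 4 in non-silencing cells. Ifit2 (9.51 and 10.9) and Irf9 were in both, Ifnb1 (11.3) in untransduced cells only, and Ifih1 (7.91) and Usp18 (7.50) in non-silencing cells only. Of 16 genes of the p53 list, which holds Trp53 and its targets, Gdf15, Trp53 (13.1 and 36.6) and Mdm2 (9.54 and 10.9) were in both and Zmat3 (18.5) and Bbc3 (15.4) in the non-silencing list only. Of the 9 small RNA genes Ago1, Ago2 (8.01 and 5.51) and Tarbp2 (10.1 and 15.4) were in both and none in 1 list only. Only the non-silencing list thus marked 2 interferon and 2 p53 genes at full length, and at equal numbers 0 and 2. Only the untransduced list then marked 3 and 1. Of all coding genes at full length, 9.43% were marked in the non-silencing list only and 1.17% in the untransduced list only. At equal numbers, 690 of the 21887 coding genes were marked in the non-silencing list only and 872 in the untransduced list only. The small counts of these gene lists were not tested against those of all coding genes.

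Among cell death genes, Fadd (13 and 14.3), Tradd (10.5 and 12.6), Bcl2l11 (7.72 and 8.62) and Bak1 (6.37 and 14.3) were in both lists and Ripk3 (7.23) in the non-silencing list only. Mlkl and Ripk1 count as unmarked here, since their untransduced summits lie more than 2 kb from the gene ends. Of 16 growth and cell cycle genes, Myc (8.28 and 9), Mycn (7.27 and 16.6) and Cdkn2b (12.1 and 4.76) were in both and Cdkn2a (8.56) in the untransduced list only. Of 16 housekeeping genes, Pgk1, Rpl13a (10.3 and 12) and Rplp0 (9.54 and 17.2) were in both, and Eef1a1 (11.3) and Gapdh (8.83) were among those in the non-silencing list only. The X-inactivation, globin and receptor lists and the pair Smchd1 and Lrif1 had no marked gene in either list.

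**Figure D5:**
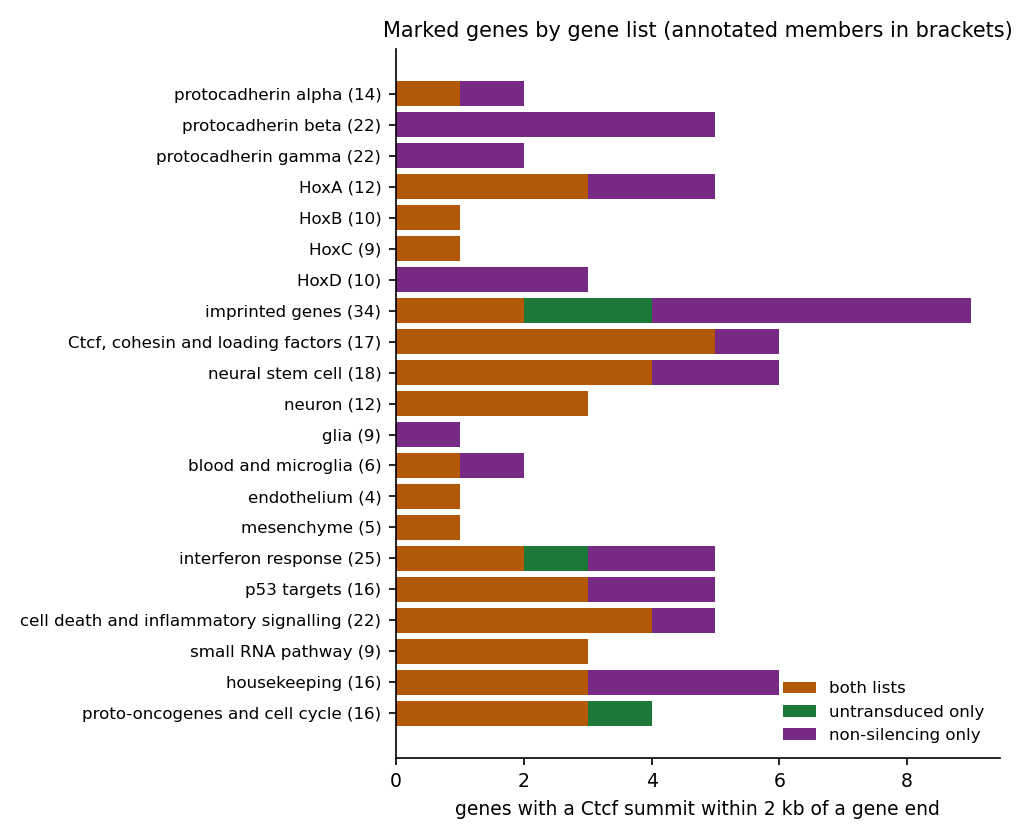
Number of genes with a Ctcf summit within 2 kb of a gene end (x axis) in both lists, the untransduced list only or the non-silencing list only, for each gene list with a marked member (y axis, annotated members in brackets). Imprinted genes, interferon response genes and growth genes are the lists with genes marked in untransduced cells only, 4 in all.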

How the data were processed

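The 4 libraries are Ctcf ChIP-seq of crosslinked, sonicated chromatin, per the labels' protocols. The submitters' processing notes name CASAVA 1.4, MACS2 at version 2, and mm10. No aligner or filter is named in the sources used here. The authors deposited, for each group, summits 1 bp wide with a −log10 score, either of a p-value or of a q-value. The labels do not say which. The file names carry a threshold of 5e-4, and the lowest scores lay just above its −log10, 3.301. The labels of the untransduced samples name a coverage track of the null cells. Coverage tracks were not used.

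Summits off assembled chromosomes (9 untransduced, 15 non-silencing, 13 null) were left out. Distances, overlaps and exact 95% (Clopper-Pearson) intervals came from scripts using pandas 2.3.3, numpy 2.4.6 and scipy 1.17.1 under Python 3.11.15. Plots were drawn by matplotlib 3.10.9. Summits within 1 kb counted as shared. Equal numbers means the highest scores of each list, with ties taken in order of chromosome and position. A gene was marked by a summit within 2 kb of either end in RefSeq (GRCm38, 21887 coding genes). Exons were not used. Promoter sequences are RefSeq's. The MBD lists were joined, since the labels conflict on their genotype. The overlap code gave the brute-force result in 200 of 200 simulated cases, and 3316 of 3316 planted shared summits were found.

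Sites were named by rule: the 15 highest of each list that lay within 10 kb of a coding gene end and over 5 kb from the other list, the 10 highest shared, listed genes marked in 1 list, and 2 promoters a set. Beyond the rule, promoters shown had to have the core before the start and to lie off chromosome 18. The members and lists were chosen with earlier results of these data known. A gene of the lists is counted but not reported here by name.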

Additional observations from a re-analysis of the deposited data

How the results depend on the processing

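The shares and gene counts were recomputed under other settings. Of 34 such values, 20 stayed within the interval of the share or within 1.5 times the count and 14 did not. With summits shared within 250 bp, the untransduced share at full length was 84.7%, the non-silencing share 34.3%, the share at equal numbers 51.6% and that with the null list 50.3%. Within 5 kb they were 87.8%, 40.6%, 56.7% and 55.1%. With scores of at least 5 in each list, the non-silencing share was 33.9%. Genes marked in the non-silencing list only numbered 1334 with ends within 1 kb and 3414 within 5 kb, and at equal numbers 443 and 1200. Genes marked in the untransduced list only fell from 256 to 139 when no non-silencing summit was allowed within 10 kb. Fewer or more summits lie within a shorter or longer distance by construction. Merging neighbouring summits within 1 kb left all 4 shares within their intervals.

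Chosen after seeing the data, leaving out the 4 runs of untransduced-only summits and the Pgk1 summit (25 summits) gave 85.9%, 52.8% and 252 genes, and ties taken in the reverse order gave 52.7%, 51.6% and 692 genes.

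No paired analysis was possible because each list pools the 2 libraries of its group. Leaving out a library was not possible for the same reason. The files give no depth, and a site not in a list is not shown to be unbound.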
